A study of Mus musculus with 4 samples.

Results

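The genes described here are the 4 MEF2 transcription factor genes, Mef2a, Mef2b, Mef2c and Mef2d, and the 4 class IIa histone deacetylase genes, Hdac4, Hdac5, Hdac7 and Hdac9. They are 8 of the 23285 genes with a value per library. They were selected by symbol after values from the genotype comparison had been seen, so their genotype differences are given as a description and without a p-value. RNA was sequenced from 4 samples of mouse thymocytes sorted at the DN3 stage, where T cell precursors carry neither CD4 nor CD8 and rearrange the T cell receptor beta locus. The comparison addressed how a reduced-function Gata3 genotype alters expression at this stage.

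Both groups were labelled C57BL/6 and both came from irradiated recipient mice that had received donor fetal liver cells 16 weeks earlier. One group had wild type (WT) donors (2 libraries), and the other had donors labelled Gata3(g/g) hypomorph (2 libraries). Gata3 encodes a GATA-binding factor required in early T cell development. These were therefore transfer chimeras in which cells of the recipient could remain, the age of the mice was not given, and nothing in the labels says that the libraries of a genotype came from separate animals. The p-values then measure the spread between these samples, which may be technical. Per the sequence identifiers in the labels, both replicates 1 belonged to one sequencing run (run 1) and both replicates 2 to another (run 2), and nothing else about the runs was given. All 10 markers of the DN3 stage, among them Cd3g, Il2ra and Dntt, exceeded 10 FPKM in every library. Of these markers Il2ra, the gene of CD25, also moved with the genotype, at 277 and 261 FPKM in WT against 569 and 492 in Gata3(g/g) (a log2 change of 0.98 ± 0.181, SE, with edgeR's adjusted p at 0.00262 under the block), and its relation to the differences described here was not tested. Gata3 itself was higher in the libraries that carry the hypomorph label: WT libraries held 62.4 and 58.5 FPKM, and those labelled Gata3(g/g) held 120 and 96.1 FPKM (a log2 change of 0.83 ± 0.146, SE, with edgeR's adjusted p at 0.00166 under the replicate block and at 0.965 without it). GATA3 protein was not measured, and every direction given here for Gata3(g/g) rests on the labels.

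MEF2 proteins are MADS-box factors that bind A/T-rich DNA and either activate or repress their targets, depending on what is bound to them. Class IIa deacetylases have little deacetylase activity of their own. They bind MEF2 proteins through their N-terminal part and bring in a corepressor complex that contains HDAC3. Kinases of the CaMK, PKD, SIK and MARK families phosphorylate them, after which 14-3-3 proteins hold them in the cytoplasm and MEF2 targets are released. In thymocytes HDAC7 is best known for repressing Nr4a1, the gene of the orphan nuclear receptor NUR77, together with MEF2D until the T cell receptor signals. MEF2C is known from early lymphoid and myeloid progenitors and from B cells.

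Levels are given in FPKM, fragments scaled by transcript length and library size, which can be compared between genes. Depth ran from 14331705 to 26901913 fragments per library. The order of the genes was nearly the same in all 4 libraries: Hdac4 was the highest, followed by Hdac7, Mef2d, Mef2a, Hdac5 and Hdac9. Only the last 2 places changed, since Mef2b stood above Mef2c in both WT libraries and Mef2c above Mef2b in both Gata3(g/g) libraries. Several neighbours in this order did not separate beyond the spread between libraries. In WT, Hdac4 and Hdac7 differed by a ratio of 1.15 in replicate 1 and 1.03 in replicate 2, and Mef2b and Mef2c overlapped. In Gata3(g/g) replicate 1, Hdac9 reached 0.997 of the Hdac5 level. Hdac4 stood above between 93.4% and 95.3% of all genes in the file, Hdac7 above between 90.1% and 95.2%, and Mef2d above between 82.9% and 91.7%, whereas Mef2b and Mef2c stood above between 48.7% and 59.9%.

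**Figure D1:**
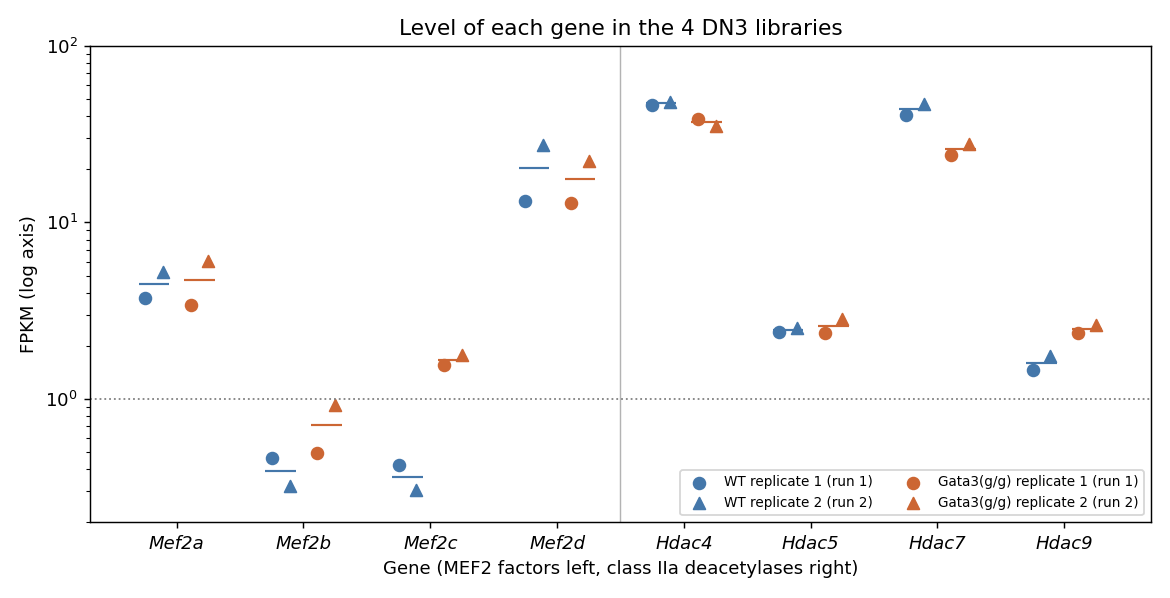
FPKM on a log axis of the 4 MEF2 genes and the 4 class IIa deacetylase genes in each library, with circles for replicate 1 (run 1), triangles for replicate 2 (run 2) and a horizontal bar for the mean of the 2 libraries of a genotype; the dotted line marks 1 FPKM. Mef2c lies between 0.304 and 0.420 FPKM in WT and at 1.56 and 1.76 FPKM in Gata3(g/g), Hdac7 is lower in both Gata3(g/g) libraries, and Mef2a and Mef2d separate by run.

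The start regions of the genes that differed most between the genotypes are shown first, because the study concerns a GATA factor and these are the regions where a transcription factor could be looked for. The 250 bases before the annotated start are given 5′ to 3′ on the strand of the gene, from the RefSeq annotation of GRCm38.p6, the assembly that mm10 represents. Capitals mark matches on either strand to AGATAA, whose first base may also be T and whose last base may also be G (the GATA letters), and in Hdac5 a match to the MEF2 consensus. For the 4 regions printed, the annotated start is also the 5′ end of the gene's locus in the authors' deposited table. Hdac5 is shown for its MEF2 consensus.
Mef2c, chr13:83503784-83504033, plus strand: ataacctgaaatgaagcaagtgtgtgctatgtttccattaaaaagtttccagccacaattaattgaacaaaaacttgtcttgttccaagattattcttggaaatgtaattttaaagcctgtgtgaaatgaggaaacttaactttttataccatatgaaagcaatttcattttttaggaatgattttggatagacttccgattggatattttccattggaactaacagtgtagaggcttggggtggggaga
Hdac7, chr15:97844503-97844752, minus strand: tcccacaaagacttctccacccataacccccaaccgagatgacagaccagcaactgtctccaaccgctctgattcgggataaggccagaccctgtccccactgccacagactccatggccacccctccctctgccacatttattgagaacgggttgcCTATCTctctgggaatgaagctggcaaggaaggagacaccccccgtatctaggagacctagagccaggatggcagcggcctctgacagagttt
Hdac9, chr12:34528890-34529139, minus strand: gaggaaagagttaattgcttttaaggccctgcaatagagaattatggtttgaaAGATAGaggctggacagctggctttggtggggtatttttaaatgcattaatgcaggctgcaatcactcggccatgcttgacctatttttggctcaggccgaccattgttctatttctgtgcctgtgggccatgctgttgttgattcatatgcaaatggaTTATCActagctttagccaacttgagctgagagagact
Hdac5, chr11:102230173-102230422, minus strand: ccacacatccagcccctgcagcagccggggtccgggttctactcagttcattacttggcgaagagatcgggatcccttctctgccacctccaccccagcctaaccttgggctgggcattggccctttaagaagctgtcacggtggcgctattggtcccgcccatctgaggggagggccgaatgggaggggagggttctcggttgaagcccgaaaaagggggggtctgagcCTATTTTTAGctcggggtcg

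The Mef2c region held neither motif. The Hdac7 region held 1 match to the GATA letters, CTATCT on the strand shown, from 93 to 88 bases before the start. The Hdac9 region held 2, AGATAG from 197 to 192 and TTATCA from 38 to 33 bases before the start. The table held 14 start regions for the 8 genes, all of which matched by symbol. The GATA letters occurred in 4 of the 14, all of them in Hdac7 or Hdac9, which have more than 1 region each. This share is close to the 26.54% of the 32851 start regions of all genes, and nothing is read from it. The MEF2 consensus in its strict palindromic form, searched on both strands, occurred before the start in 1 of the 14, that of Hdac5, at CTATTTTTAG from 20 to 11 bases before the start, against 0.508% of all start regions. No GATA match overlapped it. These matches describe letters and not binding, which was not measured.

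Mef2c had the largest genotype difference of the 8 genes. It lies on chromosome 13 from 83504034 to 83667079 (mm10) in the authors' deposited table. In WT it reached 0.420 and 0.304 FPKM (0.362 ± 0.0821, SD, n = 2), and in Gata3(g/g) it reached 1.56 and 1.76 FPKM (1.66 ± 0.144, SD, n = 2). Both Gata3(g/g) libraries were therefore above both WT libraries, and so was the Gata3(g/g) library above the WT library within each run. The values rested on 104 and 52 fragments in WT and on 512 and 390 in Gata3(g/g), whose exact 95% Poisson intervals, for counting error only, together spanned 38.8 to 126 and 352 to 558. The log2 fold change was 2.19 ± 0.242 (SE) with the replicate block and 2.20 ± 0.301 without it, and the log2 CPM difference was 1.88 in run 1 and 2.50 in run 2. On the log2(FPKM + 1) scale the difference was 0.97, because adding 1 to values below 1 compresses it. The authors' deposited table gives 2.20. Mef2c passed the filter of a mean of 1 FPKM only through the Gata3(g/g) libraries. In bulk RNA, a larger number of cells that carry a transcript and more of it per cell cannot be told apart.

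Markers of other cell types that can carry Mef2c were measured beside it, and some moved with the genotype. These markers were chosen with earlier results of these data known. The summed FPKM of the 5 early T progenitor markers was 7.01 and 7.78 in WT and 9.94 and 12.2 in Gata3(g/g). Cd44, the hyaluronan receptor that DN3 cells lose, rose from 1.16 and 1.09 to 2.42 and 3.12 FPKM (a log2 change of 1.23 ± 0.197, SE, with edgeR's adjusted p at 7.09e-04 under the block). Kit, the highest of the list and the only other 1 tested, overlapped between the genotypes and did not pass (a log2 change of 0.20 ± 0.140, SE, with edgeR's adjusted p at 0.460 under the block). Flt3 and Lmo2 fell under the filter, and their genotypes overlapped. Cd34, a progenitor marker under the filter, had 0.418 and 0.302 against 1.44 and 0.592 FPKM. It was called higher by edgeR with the block and no filter (a log2 change of 1.44 ± 0.368, SE, with an adjusted p of 0.00364). By edgeR without the block and with no filter its adjusted p was 0.9999. The 9 B cell markers summed to 31.7 and 31.8 FPKM in WT and 39.6 and 33.9 in Gata3(g/g), nearly all of it Cd79b. Without Cd79b they summed to 1.95 and 2.68 against 2.65 and 4.27 FPKM, 6 of the 9 stayed below 1 FPKM in every library, and neither of the 2 tested passed by edgeR with the block.

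The 10 myeloid markers summed to 14.4 and 56.3 FPKM in WT and 22.3 and 66.2 in Gata3(g/g). Among them Lyz2, the lysozyme of myeloid cells, rose by 1.27 ± 0.198 on the log2 scale (SE, with edgeR's adjusted p at 6.10e-04 under the block), and 6 of the 10 were below 1 FPKM in every library. The other 3 tested, Cd68, S100a8 and S100a9, had log2 fold changes of −0.43, −0.08 and −0.80 and did not pass, and the median of the tested markers was −0.26. S100a8 had the highest mean of the list through run 2, with 33.3 and 40.2 FPKM, and measured 0.660 and 0.0 FPKM in run 1. The 8 dendritic cell markers without their highest, Ccr9, summed to 0.522 and 1.62 in WT and 1.21 and 1.94 FPKM in Gata3(g/g). Ccr9, the only 1 tested, went the other way and did not pass by edgeR with the block (a log2 change of −0.29 ± 0.133, SE). Xcr1, Zbtb46, Batf3, Cd209a and Clec9a overlapped between the genotypes. Siglech was higher in Gata3(g/g), with at most 7 fragments in a library. Itgax, the gene of CD11c, was at 0.151 and 0.142 against 0.547 and 0.447 FPKM. It fell under the filter and was called higher by edgeR with the block and no filter (a log2 change of 1.76 ± 0.439, SE, with an adjusted p of 0.00267). By edgeR without the block and with no filter its adjusted p was 0.9575. The 5 megakaryocyte markers stayed below 1 FPKM in every library. The part of these cells in the Mef2c difference was not tested.

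By the distance between centred log2 CPM values over the 4 libraries, the 5 tested genes closest to Mef2c were Itga9, Gpr18, Myof, Cd163l1 and Scin. Itga9, the integrin alpha 9 subunit, was the closest, at a distance of 0.205, with 0.519 and 0.350 FPKM in WT and 1.97 and 1.90 FPKM in Gata3(g/g). The distances of the other 4 ran from 0.249 for Gpr18 to 0.441 for Scin. The ranking rests on 4 libraries that share genotype and run, and it describes these values only.

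Mef2a and Mef2d, the broadly expressed MEF2 genes, followed the run. Mef2d, which partners HDAC7 on the Nr4a1 promoter, lies on chromosome 3 from 88142395 to 88169167. It measured 13.2 FPKM in WT replicate 1 and 27.4 in WT replicate 2 (20.3 ± 10.1, SD, n = 2), and 12.9 and 22.3 in the corresponding Gata3(g/g) libraries (17.6 ± 6.63, SD, n = 2). Both libraries of run 2 were above both libraries of run 1, and the genotypes overlapped. The genotype log2 fold change was −0.16 ± 0.136 (SE) with the replicate block and −0.21 ± 0.454 without it.

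Mef2a lies on chromosome 7 from 67233827 to 67372858. It measured 3.75 FPKM in WT replicate 1, 5.24 in WT replicate 2, and 3.39 and 6.03 in the Gata3(g/g) libraries of runs 1 and 2. The genotypes overlapped here too, with means of 4.50 ± 1.05 (SD, n = 2) in WT and 4.71 ± 1.87 (SD, n = 2) in Gata3(g/g). The log2 fold change by genotype was 0.03 ± 0.165 (SE) with the replicate block, −0.13 in run 1 and 0.19 in run 2.

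The difference between the runs had no part in the selection of these genes and could be tested. Mef2d rose by 0.94 ± 0.137 (log2, SE) in run 2 over run 1 (adjusted p = 8.72e-05 by edgeR with the genotype in the model), by 1.09 in WT and 0.79 in Gata3(g/g). Mef2a rose by 0.68 ± 0.166 (log2, SE, adjusted p = 0.00477 by edgeR), by 0.51 in WT and 0.83 in Gata3(g/g). They were the 2 that passed among the 7 genes tested, both in the direction of run 2. Across all 10224 genes tested, 34.8% passed in either direction and 17.5% were higher in run 2. The other 5 had run differences from −0.06 ± 0.236 (SE) for Mef2c to 0.23 ± 0.186 (SE) for Hdac9, with adjusted p-values from 0.156 for Hdac7 to 0.937 for Hdac4.

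Other transcripts moved with the run as well. The 5 erythroid markers, led by Hbb-b1, summed to 0.853 and 2.33 FPKM in the libraries of run 1 and to 329 and 334 FPKM in those of run 2. The neutrophil transcripts S100a8 and S100a9 also rose in run 2. The part of these cells in the Mef2a and Mef2d difference was not tested. Because the replicate number equals the sequencing run, other differences between replicates 1 and 2 and the run itself cannot be told apart.

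Mef2b, a MEF2 gene best known from germinal centre B cells, was at the edge of detection. It lies on chromosome 8 from 70152778 to 70167488. Its counts were 21 and 10 fragments in WT and 30 and 37 in Gata3(g/g), with exact 95% Poisson intervals of 13.0 to 32.1, 4.8 to 18.4, 20.2 to 42.8 and 26.1 to 51.0. The levels were 0.462 and 0.320 FPKM in WT (0.391 ± 0.101, SD, n = 2) and 0.495 and 0.921 in Gata3(g/g) (0.708 ± 0.301, SD, n = 2). The Gata3(g/g) libraries were above the WT libraries, but in run 1 the counting intervals overlapped. At a mean of 0.549 FPKM it fell under the filter. Among all genes with at least 1 fragment, its log2 fold change was 0.78 ± 0.734 (SE) with the block, 0.11 in run 1 and 1.39 in run 2. Whether the runs differed in this could not be tested, since a model with both terms and their interaction leaves 0 residual degrees of freedom. RefSeq also places Gm45929 over Mef2b, a protein-coding gene that shares its position and is not listed in the file, so reads of both cannot be told apart. Other members overlap RefSeq genes too. Mef2c overlaps the noncoding genes Gm52043 and Gm52044, and Mef2d overlaps 1700113A16Rik, which is listed in the file. Hdac4, Hdac5 and Hdac9 overlap genes that are not listed. How many reads these overlaps touch was not measured.

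**Figure D2:**
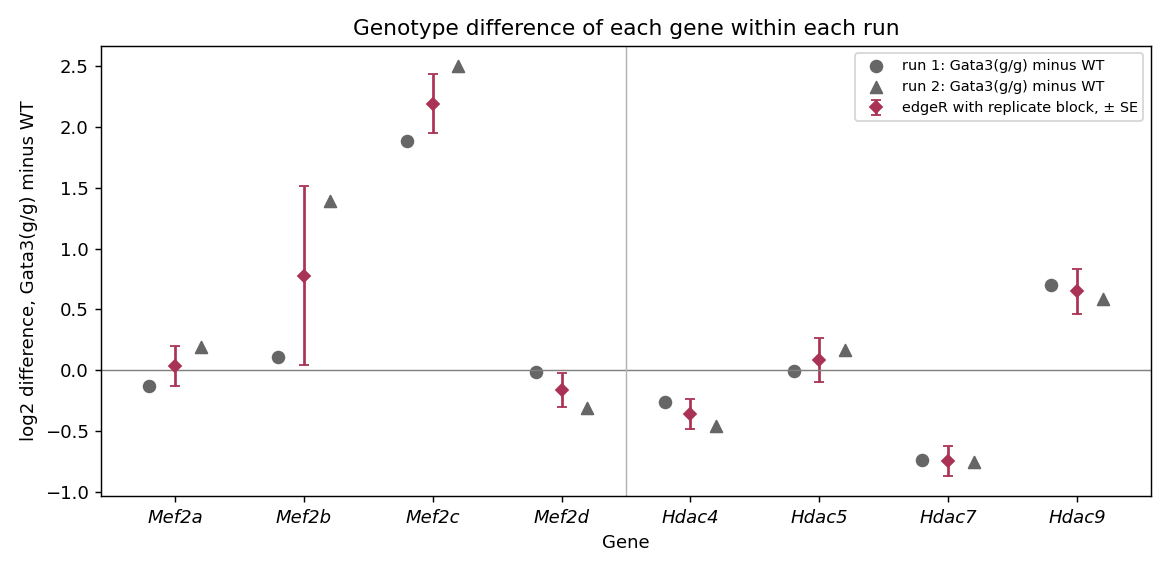
Log2 difference of Gata3(g/g) minus WT for each gene, as log2 CPM within run 1 (circles) and within run 2 (triangles) and as the edgeR fold change with the replicate block ± SE (diamonds), with Mef2b from the fit without a filter. Mef2c, Hdac4, Hdac7 and Hdac9 lie away from 0 in both runs, from 2.50 for Mef2c in run 2 to −0.75 for Hdac7 in run 2, while Mef2a and Hdac5 change sign between the runs and Mef2d lies at −0.01 and −0.31.

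Hdac7 was the class IIa gene with the largest genotype difference, and it was lower in Gata3(g/g). Its product is the class IIa deacetylase best studied in thymocytes, and Hdac7 lies on chromosome 15 from 97792661 to 97844502 in RefSeq, with the authors' entry joining it to the neighbouring heme transporter gene Slc48a1 from 97784365. In WT it reached 40.5 and 47.0 FPKM (43.8 ± 4.58, SD, n = 2), and in Gata3(g/g) only 24.0 and 27.9 FPKM (26.0 ± 2.72, SD, n = 2). Both Gata3(g/g) libraries were below both WT libraries. The log2 fold change was −0.74 ± 0.123 (SE) with the replicate block and −0.75 ± 0.219 without it. It was nearly equal in the 2 runs, at −0.74 and −0.75, and rested on 3981 to 6479 fragments per library. The authors' deposited table gives −0.75. Reads where Hdac7 and Slc48a1 overlap could have been counted for either gene, since whether counting used the strand is not given in the sources used here.

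Markers of other cells moved with the genotype beside this difference. The 6 mast cell and basophil markers summed to 43.5 and 50.2 FPKM in WT and to 2.89 and 1.90 in Gata3(g/g), nearly all of it Cpa3, while Fcer1a was at 0 in every library and 5 of the 6 stayed below 1 FPKM. Of the markers of later double-positive thymocytes, where HDAC7 is best studied, Cd8a and Cd8b1 rose by edgeR with the block, Cd4 was below 1 FPKM in every library, and the 5 markers summed to 38.3 and 7.25 FPKM in WT and 29.7 and 13.4 in Gata3(g/g). Cd69 had the highest mean of them, although Cd8b1 was higher in Gata3(g/g) replicate 2. Whether Cpa3 came from such cells, and the part of any of these cells in the Hdac7 difference, was not tested.

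Hdac4, the most abundant of the 8 genes, was also lower in Gata3(g/g), by less. It lies on chromosome 1 from 91932749 to 92148393. It measured 46.5 and 48.2 FPKM in WT (47.4 ± 1.16, SD, n = 2) and 38.5 and 35.2 FPKM in Gata3(g/g) (36.8 ± 2.32, SD, n = 2). The genotypes did not overlap. The log2 fold change was −0.36 ± 0.127 (SE) with the replicate block, −0.26 in run 1 and −0.46 in run 2. The ratio of Hdac4 to Hdac7 was 1.15 and 1.03 in WT and 1.60 and 1.26 in Gata3(g/g).

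Hdac9 went the other way. It lies on chromosome 12 from 34371497 to 34528889 in the authors' table, a shorter span than RefSeq's, which runs from 34047580 to 34917095. It measured 1.46 and 1.75 FPKM in WT (1.60 ± 0.205, SD, n = 2) and 2.36 and 2.64 FPKM in Gata3(g/g) (2.50 ± 0.201, SD, n = 2). Both Gata3(g/g) libraries were above both WT libraries, and the log2 fold change was 0.65 ± 0.186 (SE) with the replicate block, 0.70 in run 1 and 0.58 in run 2. Its level was a small part of the family's: Hdac7 was lower by far more FPKM than Hdac9 was higher.

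Hdac5, a close relative of Hdac4 and Hdac9 best known from muscle and nerve, did not separate by genotype and did not pass the test by run. It lies on chromosome 11 from 102195747 to 102230172. It measured 2.40 and 2.51 FPKM in WT (2.45 ± 0.0788, SD, n = 2) and 2.36 and 2.84 FPKM in Gata3(g/g) (2.60 ± 0.336, SD, n = 2). The log2 fold change was 0.08 ± 0.182 (SE) with the replicate block. Both libraries of run 2 were slightly above both of run 1, by a log2 difference of 0.19 ± 0.182 (SE, adjusted p = 0.445 by edgeR). The Hdac9 level was 0.609 and 0.697 of the Hdac5 level in WT and 0.997 and 0.931 of it in Gata3(g/g).

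**Figure D3:**
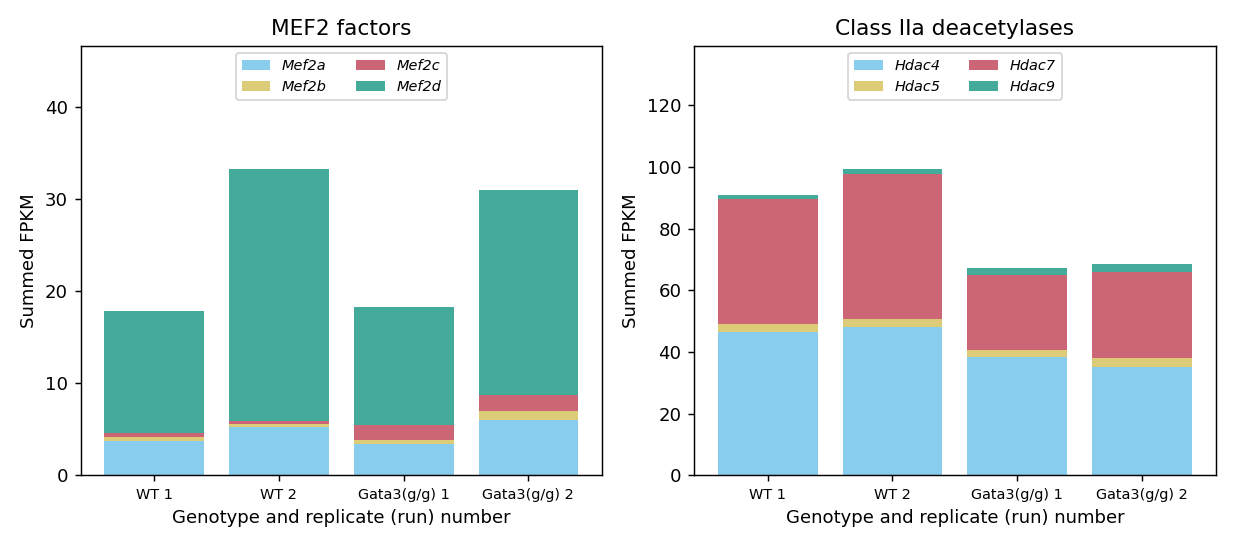
Summed FPKM of the 4 MEF2 genes (left) and of the 4 class IIa deacetylase genes (right) in each library, stacked by gene. The MEF2 sum is 17.8 and 18.3 FPKM in the libraries of run 1 and 33.3 and 31.0 in those of run 2, whereas the class IIa sum is 91.0 and 99.5 in WT and 67.2 and 68.6 in Gata3(g/g).

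Summed over each family, the MEF2 level, most of it Mef2d, separated by run, and the class IIa level, most of it Hdac4 and Hdac7, separated by genotype. Neither sum was tested, and Mef2c and Hdac9 did not follow the sum of their family. The 4 MEF2 genes summed to 17.8 FPKM in WT and 18.3 in Gata3(g/g) in run 1, and to 33.3 and 31.0 FPKM in run 2. Mef2d made up between 70.3% and 82.4% of this sum. Mef2c accounted for 2.36% and 0.913% of it in the WT libraries and for 8.51% and 5.69% in the Gata3(g/g) libraries, so that Mef2d exceeded Mef2c by ratios of 31.3 and 90.2 in WT and of 8.26 and 12.6 in Gata3(g/g).

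The class IIa genes summed to 91.0 and 99.5 FPKM in WT and to 67.2 and 68.6 FPKM in Gata3(g/g). Hdac4 and Hdac7 made up nearly all of it. The share of Hdac7 was 44.6% and 47.3% in WT and 35.8% and 40.7% in Gata3(g/g), and that of Hdac4 was 51.2% and 48.5% in WT and 57.2% and 51.3% in Gata3(g/g). The higher WT share of Hdac4 and its lower Gata3(g/g) share lay closer together than the libraries of either genotype.

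Across all 10224 tested genes, edgeR with the replicate block called 6.90% by genotype, 3.90% higher and 2.99% lower in Gata3(g/g). With that model Mef2c, Hdac9 and Hdac7 were the 3 called among the 7 of the 8 genes that were tested, the first 2 higher and Hdac7 lower. With no filter, 4.63% of 21355 genes were called and the same 3 of 8. Without the block edgeR called 0% of all genes, with 393 genes at an unadjusted p under 0.05, while DESeq2 called 88 genes and limma 5. By DESeq2 with the block Mef2c and Hdac7 were called and Hdac9 was not, and limma with the block called none of the 8. Mef2c, Hdac4, Hdac7 and Hdac9 were the 4 of the 7 whose genotypes did not overlap in FPKM, a pattern that held for 29.0% of all tested genes. Since the genes were selected with this comparison known, nothing is read from these counts.

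The partners of these proteins were examined through 9 gene lists with 65 tested genes that are not among the 8, counted in the fit across all genes. The lists were chosen with earlier results of these data known, so their counts describe these data and are no independent support. Without the replicate block none of the 65 passed by edgeR (3 had an unadjusted p under 0.05), DESeq2 or limma. With the block, 4 rose and 8 fell in Gata3(g/g), beside 3.90% higher and 2.99% lower among all tested genes. The median log2 fold change of the 65 was 0.04 beside 0.01 for all tested genes. The adjusted p-values that follow are those of edgeR with the block. By DESeq2 with the block 7 of the 12 were called, while Camk2d, Sik1, Kat2b, Jun and Sfpi1 were not (adjusted p from 0.0780 to 0.641), and limma with the block called none.

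Among the kinases that phosphorylate class IIa deacetylases, 0 of 16 tested rose and 4 fell, beside 3.90% higher and 2.99% lower among all tested genes. Camk1g, a kinase of the list under the filter on low values, went the other way, from 0.254 and 0.336 to 0.689 and 1.004 FPKM. It was called higher by edgeR with the block and no filter (a log2 change of 1.504 ± 0.426, SE, with an adjusted p of 0.0125). By edgeR without the block and with no filter its adjusted p was 0.9999. Camk4, the calcium- and calmodulin-dependent kinase of T cells and neurons, fell from 3.71 and 4.99 to 1.59 and 2.55 FPKM (a log2 change of −1.09 ± 0.138, SE, with an adjusted p of 7.95e-05), by 1.21 in run 1 and by 0.97 in run 2 on the log2 scale. Camk2a fell by 0.66 on the log2 scale (adjusted p = 0.0149), Camk2d by 0.50 (adjusted p = 0.0345) and Sik1, a salt-inducible kinase, by 0.90 (adjusted p = 0.0144). Sik1 also fell steeply with the run, from 26.8 to 3.25 FPKM in WT, and its genotype difference was −1.47 in run 1 and −0.22 in run 2. When 1 library was left out of the unpaired fit, Sik1 turned to 0.90 without WT replicate 1. Camk2a was then −0.26 without WT replicate 2 and −1.08 without WT replicate 1, and Camk2d was −0.82 without WT replicate 2 or Gata3(g/g) replicate 1, −0.27 without Gata3(g/g) replicate 2 and −0.14 without WT replicate 1. Stk11, the LKB1 kinase upstream of SIK and MARK kinases, had the highest mean of the list over the 4 libraries and did not pass, although Camk2a was higher in WT replicate 2. The median of the list was −0.05.

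None of the 7 genes for 14-3-3 proteins passed by genotype with the block, with Ywhae the highest at 179 to 207 FPKM. Nor did any of the 5 phosphatase genes that reverse the phosphorylation, led by Ppp2ca, the 6 genes of the HDAC3 corepressor, in which Ncor1 had the highest mean and Gps2 the highest level in run 1, the 7 other deacetylases, led by Hdac2, or the 4 calcineurin genes, led by Ppp3cb. These 5 lists held 28 tested genes, with Hdac3 in 2 of them. In the model with the block 3 of the 28 had an unadjusted p under 0.05, and DESeq2 also called none. Medians of the 5 lists ran from −0.08 for the other deacetylases to 0.14 for the phosphatases. Hdac3, the enzyme that class IIa proteins recruit, measured 23.8 and 20.8 FPKM in WT and 21.3 and 20.0 in Gata3(g/g). Of the corepressor genes, Ncor1, Tbl1x and Tbl1xr1 were among those that rose in run 2, as Mef2a and Mef2d did. Of the 8 MEF2 coactivator, repressor and kinase genes, among which Crebbp had the highest mean and Mapk14 the highest level in run 1, only Kat2b, the acetyltransferase PCAF, passed (a log2 change of 0.43 ± 0.123, SE, with an adjusted p of 0.0483).

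Of 8 tested genes reported as MEF2 targets, 4 fell and 1 rose in Gata3(g/g), beside 2.99% lower and 3.90% higher among all tested genes. The list median was −0.66. Those that fell were the 3 orphan nuclear receptor genes and Egr1, an immediate-early zinc-finger gene. Nr4a1 fell from 15.2 and 4.72 to 6.14 and 2.18 FPKM (a log2 change of −1.21 ± 0.153, SE, with an adjusted p of 7.82e-05), by 1.29 in run 1 and by 1.11 in run 2 on the log2 scale. Nr4a2 fell by 1.57 (adjusted p = 0.00119), Nr4a3 by 1.53 (adjusted p = 0.00294) and Egr1 by 0.73 (adjusted p = 0.00285). Jun, the highest of the list, rose by 0.76 (adjusted p = 0.0176), from a difference of 0.26 in run 1 and 1.29 in run 2. When 1 library was left out of the unpaired fit, Nr4a1 ranged from −2.17 to −0.21, Nr4a2 from −2.52 to −0.55 and Nr4a3 from −2.85 to −0.23, each nearest to 0 without WT replicate 1 and farthest from it without Gata3(g/g) replicate 1. In the same fits, Egr1 was 0.45 higher when WT replicate 1 was left out, and Jun was −1.01 without Gata3(g/g) replicate 1 and −0.44 without WT replicate 2.

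All 8 of these genes were also lower in run 2 by edgeR, beside 17.3% of all tested genes, with a median log2 difference of −2.16 and −5.48 for Klf4, a quiescence-associated zinc-finger gene. The Nr4a genes, Egr1 and Jun are known as immediate-early genes. Mef2d was 0.94 higher in run 2, where Nr4a1 was 1.57 lower. Between the genotypes Hdac7 and Nr4a1 were both lower in Gata3(g/g), by 0.74 and 1.21 with the block. Whether any of these differences are linked was not tested. These are single differences between the same 4 libraries.

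The last list held genes that rise together with MEF2C in early progenitor leukaemias. Like the others, it was chosen with results of these data known. Of its 7 measured genes 5 were tested, while Lmo2 and Flt3 fell under the filter and overlapped between the genotypes. Of the 5 tested, 2 rose and none fell, beside 3.90% higher and 2.99% lower among all tested genes, and the median of the tested genes was 0.77. Sfpi1, the gene of PU.1, rose from 2.21 and 1.63 to 4.34 and 4.25 FPKM (a log2 change of 1.17 ± 0.276, SE, with an adjusted p of 0.0159). Nfe2, an erythroid and megakaryocytic bZIP gene, rose from 9.19 and 7.44 to 17.5 and 13.0 FPKM (a log2 change of 0.87 ± 0.145, SE, with an adjusted p of 0.00108). The remaining tested genes, Lyl1, Hhex and Bcl2, had log2 fold changes of 0.59, 0.77 and 0.27 and did not pass, Bcl2 being the highest of the list.

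**Figure D4:**
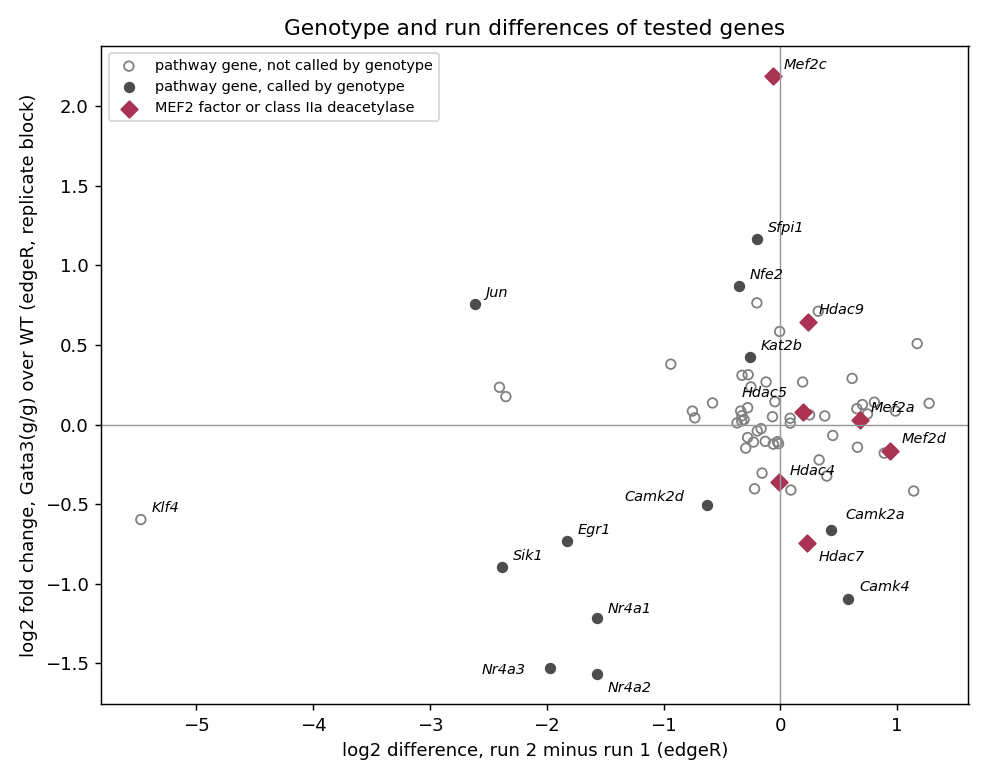
Each point is a tested gene, with the edgeR log2 difference of run 2 minus run 1 on the horizontal axis and the log2 fold change of Gata3(g/g) over WT with the replicate block on the vertical axis; diamonds are the 7 tested MEF2 and class IIa genes, filled circles pathway genes called by genotype in that model, and open circles those not called. Mef2c lies at 2.19 by genotype and −0.06 by run, Mef2d at −0.16 and 0.94, and the reported MEF2 targets lie to the left, as far as −5.48 for Klf4.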

How the data were processed

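RNA was measured in 4 libraries of DN3 thymocytes, 2 per genotype. The submitters' processing notes name Cuffdiff 2.1.1, Bowtie2 2.1.0 and TopHat2 2.0.8b, with mm10 as the genome. Which annotation was used, and whether counting used the strand, is not given in the sources. The authors' per-library file holds, per the file headers, 2 values for every gene: an estimated count of fragments before scaling, and FPKM. The authors' deposited comparison table gives a log2 fold change per gene.

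Estimated counts (97.7% to 98.9% within 0.01 of a whole number) were rounded. Of 23285 genes, 3 marked by Cuffdiff as too deep were not used, whereas 5 values it marked as failed stayed in. Genes with a mean of at least 1 FPKM (10224) were tested with edgeR 4.0.16 (R 4.3.3) by the quasi-likelihood F test, two-sided, with TMM factors from 0.983 to 1.02 and Benjamini-Hochberg adjustment at 0.05. A total of 3 fragments corresponds to 0.112 to 0.209 CPM, a floor for counting error only. The planned model held the genotype alone. The replicate number equals the sequencing run in the labels and so pairs the samples: over 10224 genes, the run differences of the 2 genotypes correlated at 0.754 (Pearson) and 0.758 (Spearman), which are not independent. Results with the replicate block are therefore printed, and run differences come from the same model. That model leaves 1 residual degree of freedom, so its p-values lean on the spread pooled over genes. The SE is the absolute unshrunken log2 fold change divided by the square root of F. Within-run differences are log2 CPM with a prior count of 2. DESeq2 1.42.0, limma 3.58.1 on log2(FPKM + 1) and log2(FPKM + 0.1), other scalings and filters, and leaving out each library were alternatives.

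The genes, the gene lists and the markers were chosen with earlier results of these data known. Named are the 8 genes, listed genes that passed by genotype, the most abundant gene of each list of at least 4 tested genes, the called or most abundant markers, Gata3 and the 5 genes closest to Mef2c. Other genes named as examples of a list were chosen after their values were seen. Start regions and overlapping genes come from RefSeq tables of GRCm38.p6, 250 bases before and 50 after each start, of which the bases before the start were used. A result for 1 listed gene is not reported here.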

Additional observations from a re-analysis of the deposited data

How the results depend on the processing

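Without the block, no gene was called by genotype with edgeR (393 at an unadjusted p under 0.05), 58 with no filter, 88 by DESeq2 and 5 by limma with either pseudocount. Leaving out each library in turn gave between 1 and 11 calls, with the lone library of a genotype assumed to vary like the others. With the replicate block, that is the pairing by run, the calls numbered 705 by edgeR, 674 with library totals, 988 with no filter, 348 at a mean of at least 5 FPKM, 417 by DESeq2 and 18 by limma. Calls among the 65 listed pathway genes went from 0 to 12 with the block, to 11 with library totals, 6 at 5 FPKM and 7 by DESeq2. With no filter 12 listed genes were called, 11 of the 65 and Camk1g, while Kat2b was lost. Run calls numbered 3560 by edgeR, 2263 by DESeq2, and 1451 and 1745 by limma with pseudocounts 1 and 0.1. Of the 2 genes called by run, only Mef2d (1 gene) was called by limma with pseudocount 1, as at 5 FPKM, where Mef2a was not tested. With no filter the median run difference of all genes was 0.11. Mef2c was 0.97 and 1.94 by limma with pseudocounts 1 and 0.1, and Hdac9 was 0.43 with pseudocount 1. When each library was left out, without a block, fold changes spanned 2.0 to 2.42 for Mef2c, 0.49 to 0.80 for Hdac9, −0.87 to −0.62 for Hdac7 and −0.42 to −0.30 for Hdac4. The direction turned for Mef2d (−0.67 to 0.44), Mef2a (−0.41 to 0.43) and Hdac5 (−0.06 to 0.22). Leaving out WT replicate 1 gave 0.90 for Sik1, 0.45 for Egr1 and 2.69 for Jun. Leaving out Gata3(g/g) replicate 1 gave −2.40, −1.92 and −1.01 for them, and Jun was −0.44 without WT replicate 2. These unpaired fits leave the runs unbalanced.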
